A study of Mus musculus with 2 samples.

Results

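The peaks described here are those at 10 genes that set whether a T cell survives or dies by apoptosis. A Tcf1 binding peak of the deposited list was taken when its summit, the position of highest coverage, lay in the body of Bcl2, Bcl2l1, Mcl1, Cflar, Bax, Bak1, Bcl2l11, Bbc3, Pmaip1 or Fas, or within 50 kb of either end (mm9 genome, GENCODE vM1 annotation). This gave 80 of the 22286 deposited peaks. Of the 80, 74 were of high confidence by the study's criteria (fold enrichment 4 or more, p below 1e-05, q below 0.05), as were 85.4% of all deposited peaks (19042 peaks). The 4 genes whose products oppose apoptosis (Bcl2, Bcl2l1, Mcl1 and Cflar) held 34 of the 74 peaks, and the 6 genes whose products promote it held 40. The 10 genes were chosen by function, with earlier results of these data known. Where genes lie close together a summit can also belong to a neighbour.

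The study performed ChIP-seq with an antiserum against Tcf1 on naïve CD8+ T cells sorted from mouse spleen as GFP+ TCRbeta+ CD62Lhi CD44lo-med CD8+ cells. The WT group was 1 library from wild-type cells and the control group was 1 library from Tcf1-deficient cells, and peaks were called in the first against the second. The series' design names hCD2-Cre and a Rosa26-lsl-GFP reporter, both carried by either group, with wild-type or double-floxed Tcf1 and Lef1 alleles, and hCD2-Cre acts mainly in mature T cells. The genotype label of the control is Tcf1-/-Lef1-/-, whereas the study's methods describe Tcf7 fl/fl mice with Cd4-Cre for the control of this assay, so whether the control cells lacked Lef1 is not settled by these sources. Age, sex and the number of mice in each library were not used here. A list of peaks measures no RNA, so neither the cell type nor the expression of any gene below could be checked.

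The WT library kept 36938606 fragments after duplicates were removed and the control 27625250. The pileup of a peak is the number of WT fragments over its summit. Fold enrichment is the pileup plus 1 divided by the control level plus 1, where the control level is the number of fragments expected from the Tcf1-deficient library and has a genome-wide floor of 5.42. At that floor a fold enrichment of 4 needed a pileup of 25. Intervals of a pileup are Poisson 95% intervals, which cover counting error only. With 1 library a group there was no test between WT and Tcf1-deficient cells, none between genes or groups of genes, and peaks were not treated as replicates.

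Tcf1, encoded by Tcf7, and its relative Lef1 bind DNA through an HMG box and are needed to make and maintain T cells. Apoptosis by the mitochondrial route is decided within the BCL2 family: BCL2, BCL-XL and MCL1 hold BAX and BAK in check, and the BH3-only proteins BIM, PUMA and NOXA release them. The other route starts at a death receptor, FAS, whose signal through caspase-8 is blocked by c-FLIP. Naïve T cells depend on BCL2 for their long life, and BIM is the main protein that opposes it there.

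The Tcf/Lef core searched was ATCAAAG on either strand within 100 bp of a summit. It was present in 7 of the 74 high-confidence peaks, which is 9.46% (95% Clopper-Pearson interval 3.89 to 18.5), and in 10.2% of all high-confidence peaks. The study scored peaks for the Tcf/Lef motif by a position-weight matrix, which is another measure than an exact match. A peak without the exact core can still carry the motif by that score. The 7 peaks with the core held 8 copies, printed here because they are the places at these genes where this exact core stood under the binding signal. Variants of the core are counted further below. Each line runs 5′ to 3′ on the strand that reads CTTTGAT, the reverse complement of ATCAAAG, with that core in capitals and 4 bases on each side.
Bcl2 intron 1, chr1:108499338-108499352, plus strand: gctaCTTTGATttgg
Bcl2 intron 1, chr1:108499379-108499393, plus strand: ctctCTTTGATgttt
Cflar intron 2, chr1:58777990-58778004, plus strand: tatcCTTTGATccct
Bak1, downstream, chr17:27149436-27149450, plus strand: gatcCTTTGATgagt
Bcl2l11, upstream, chr2:127914001-127914015, minus strand: acttCTTTGATgagg
Bbc3, upstream, chr7:16871683-16871697, plus strand: cactCTTTGATcccg
Bbc3, downstream, nearer copy, chr7:16918457-16918471, minus strand: ctctCTTTGATcact
Bbc3, downstream, farther copy, chr7:16935493-16935507, minus strand: ttgaCTTTGATttgt

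Of the 8 copies, the 1 at Bak1 lay closest to its summit, 3 bp away, and the farther downstream copy at Bbc3 was the most distant, at 35 bp. The sequence from 100 bases before to 100 bases after each of 8 summits follows on the plus strand of mm9. They are the strongest peaks of Bcl2, Bcl2l1, Mcl1, Cflar and Bbc3 and the core peaks of Bak1, Bcl2l11 and Bbc3 with the largest fold enrichment. Capitals mark the Tcf/Lef core, its variants TTCAAAG and AACAAAG, the Runx motif TGTGGTT and the STAT motif TTCNNNGAA, read on both strands.
Bcl2 intron 1, strongest peak, chr1:108497323-108497523: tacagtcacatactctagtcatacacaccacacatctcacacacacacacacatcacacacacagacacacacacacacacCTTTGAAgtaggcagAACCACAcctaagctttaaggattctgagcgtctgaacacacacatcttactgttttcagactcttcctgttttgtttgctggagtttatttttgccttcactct
Bcl2l1 intron 2, strongest peak, chr2:152601206-152601406: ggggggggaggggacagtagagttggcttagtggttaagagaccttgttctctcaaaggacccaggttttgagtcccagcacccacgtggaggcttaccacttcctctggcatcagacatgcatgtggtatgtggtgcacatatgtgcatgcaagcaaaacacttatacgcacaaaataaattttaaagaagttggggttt
Mcl1, downstream, strongest peak, chr3:95478195-95478395: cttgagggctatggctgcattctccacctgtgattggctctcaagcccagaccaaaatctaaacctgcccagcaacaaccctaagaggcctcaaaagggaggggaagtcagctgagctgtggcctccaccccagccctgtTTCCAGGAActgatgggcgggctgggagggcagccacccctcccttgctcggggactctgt
Cflar intron 2, strongest peak with the core, chr1:58777904-58778104: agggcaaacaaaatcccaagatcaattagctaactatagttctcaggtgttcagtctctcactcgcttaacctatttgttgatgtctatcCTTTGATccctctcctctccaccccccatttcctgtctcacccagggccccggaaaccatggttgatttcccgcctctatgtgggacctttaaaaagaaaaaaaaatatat
Bak1, downstream, peak with the core in intron 2 of Ggnbp1, chr17:27149346-27149546: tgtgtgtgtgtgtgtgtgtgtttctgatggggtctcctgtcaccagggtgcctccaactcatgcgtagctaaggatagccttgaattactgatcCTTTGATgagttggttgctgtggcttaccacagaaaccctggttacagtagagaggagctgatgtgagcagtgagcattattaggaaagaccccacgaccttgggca
Bcl2l11, upstream, peak with the core in intron 16 of Acoxl, chr2:127913899-127914099: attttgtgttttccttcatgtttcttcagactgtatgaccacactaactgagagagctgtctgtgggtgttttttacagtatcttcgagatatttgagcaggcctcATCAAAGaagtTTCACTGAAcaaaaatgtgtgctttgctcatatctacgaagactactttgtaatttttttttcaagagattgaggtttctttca
Bbc3, upstream, peak with the core in intron 1 of Ccdc9, chr7:16871600-16871800: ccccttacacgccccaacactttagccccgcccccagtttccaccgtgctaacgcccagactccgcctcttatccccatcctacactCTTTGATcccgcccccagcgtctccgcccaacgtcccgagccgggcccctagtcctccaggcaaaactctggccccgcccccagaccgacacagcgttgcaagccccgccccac
Bbc3, downstream, strongest peak in intron 5 of Sae1, chr7:16949719-16949919: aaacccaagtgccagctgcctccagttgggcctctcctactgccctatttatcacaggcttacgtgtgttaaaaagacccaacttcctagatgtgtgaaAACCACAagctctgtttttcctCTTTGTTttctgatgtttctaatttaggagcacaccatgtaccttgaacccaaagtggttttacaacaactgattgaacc

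In these windows the Bcl2 and Bbc3 summits sat on a Runx motif in the same orientation, 1 bp and 2 bp from its centre, and the Cflar summit sat 7 bp from a Tcf/Lef core. At Bcl2 a TTCAAAG variant lay 16 bp from the summit, beside the Runx motif, and at Bbc3 an AACAAAG variant lay 24 bp away. The Bcl2l1 window held none of the motifs. The variants were added to the search after the sequences had been read, and a match is a description of the letters and does not show that a factor bound there.

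All 10 genes had at least 2 high-confidence peaks, whereas 66.5% of the 22380 protein-coding genes had at least 1 in a window drawn in the same way. The 10 genes ranged from 2 to 15 peaks, with 15 each at Bcl2 and Bbc3, 9 each at Bak1 and Bcl2l11, 8 at Mcl1, 7 at Cflar, 4 at Bcl2l1, 3 at Bax and 2 each at Pmaip1 and Fas. The median over all protein-coding genes was 1 peak, and 0.304% of genes had 15 or more. Both ends of this range held genes of the pro-death group, so the number of peaks did not separate the groups.

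The pro-survival group had 4.91 peaks per 100 kb searched (Poisson 95% interval 3.40 to 6.86) and the pro-death group 5.69 (4.06 to 7.74). The ratio of the 2 densities was 0.864, with an exact 95% interval of 0.530 to 1.40 that covers counting error only, and the difference was not tested. Without the Bbc3 locus, an alternative chosen after its peaks had been seen, the ratio was 1.17. The median fold enrichment was 8.04 over the 34 pro-survival peaks (order-statistic 95% interval 5.61 to 13.4) and 6.63 over the 40 pro-death peaks (5.14 to 8.26), beside 6.86 over all high-confidence peaks. The pro-survival median was the higher, but the intervals overlapped and the difference was not tested. A fold enrichment of 10 or more was reached by 13 pro-survival peaks (38.2%) and 10 pro-death peaks (25%), against 27.4% of all high-confidence peaks. At 20 or more there were 3 peaks in each group, 6 of 74 in all (8.11%), against 7.98%.

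**Figure D1:**
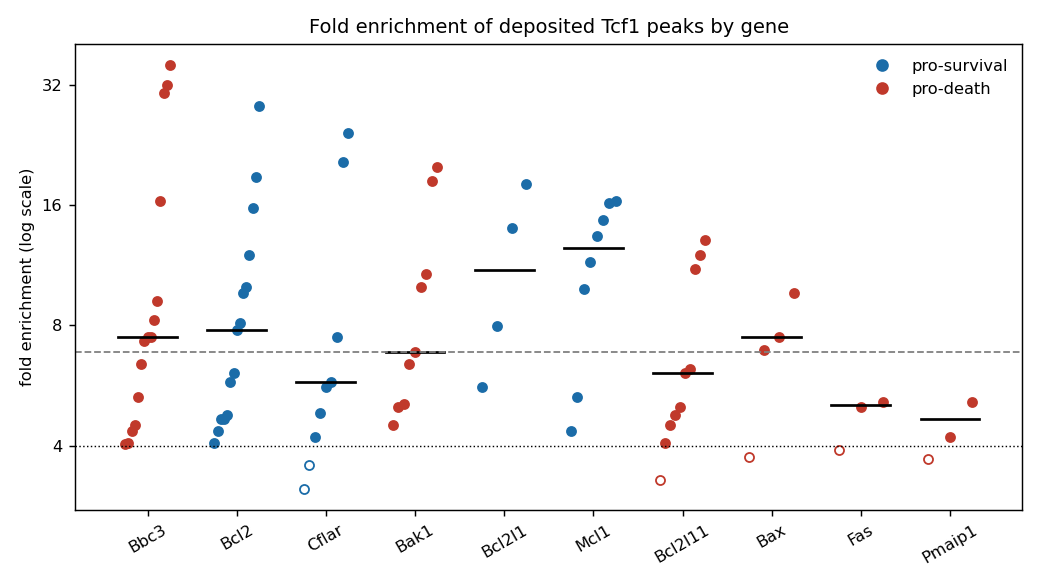
Fold enrichment (log scale) of every deposited peak at the 10 genes, ordered by the strongest peak of each gene, with pro-survival genes in blue and pro-death genes in red. Filled points are high-confidence peaks, open points the 6 deposited peaks under a fold enrichment of 4 (dotted line), bars the median of each gene's high-confidence peaks, and the dashed line the median of all high-confidence peaks, 6.86. Bbc3 spans 4.03 to 35.8, whereas the 2 high-confidence peaks of Fas lie at 4.99 and 5.14.

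The peaks of the groups were counted by where they lay, with no test between them. Away from any promoter, 15 of 34 pro-survival peaks (44.1%) and 6 of 40 pro-death peaks (15%) lay in the body of the gene itself. Of the 15, 11 were in Bcl2, and without the Bcl2 locus the pro-survival count was 4 of 19 (21.1%), beside 6 of 25 (24%) for the pro-death genes without Bbc3, so the contrast rested on these loci. The body of another gene held 2 pro-survival peaks (5.88%) and 14 pro-death peaks (35%), of which 8 were at the Bbc3 locus, all in Sae1, and 6 of 25 remained without it. The promoter of another gene, a promoter being defined as the sequence up to 1 kb from an annotated start site, held 4 pro-survival peaks (11.8%) and 9 pro-death peaks (22.5%), or 7 of 25 (28%) without Bbc3. Without the Bcl2 locus the pro-survival counts were 2 of 19 (10.5%) for the body and 3 of 19 (15.8%) for the promoter of another gene. Taken over both groups, 37 of 74 peaks were in a gene body away from promoters, against 31.5% of all high-confidence peaks. The 2 shares differ in scope, since the rule for the 74 left out summits more than 50 kb from a member gene. Of the 37, 11 were in Bcl2 and 8 in Sae1, and the difference was not tested. Promoters of any gene held 9 pro-survival peaks (26.5%, 95% interval 12.9 to 44.4) and 16 pro-death peaks (40%, 24.9 to 56.7), against 39.6% of all high-confidence peaks. Over the 74 peaks the nearest protein-coding start site was that of the member gene for 44 and that of another gene for 30. The bodies of the genes differ in length, from 4.46 kb at Mcl1 to 176 kb at Bcl2, and the part of gene length in this contrast was not tested.

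**Figure D2:**
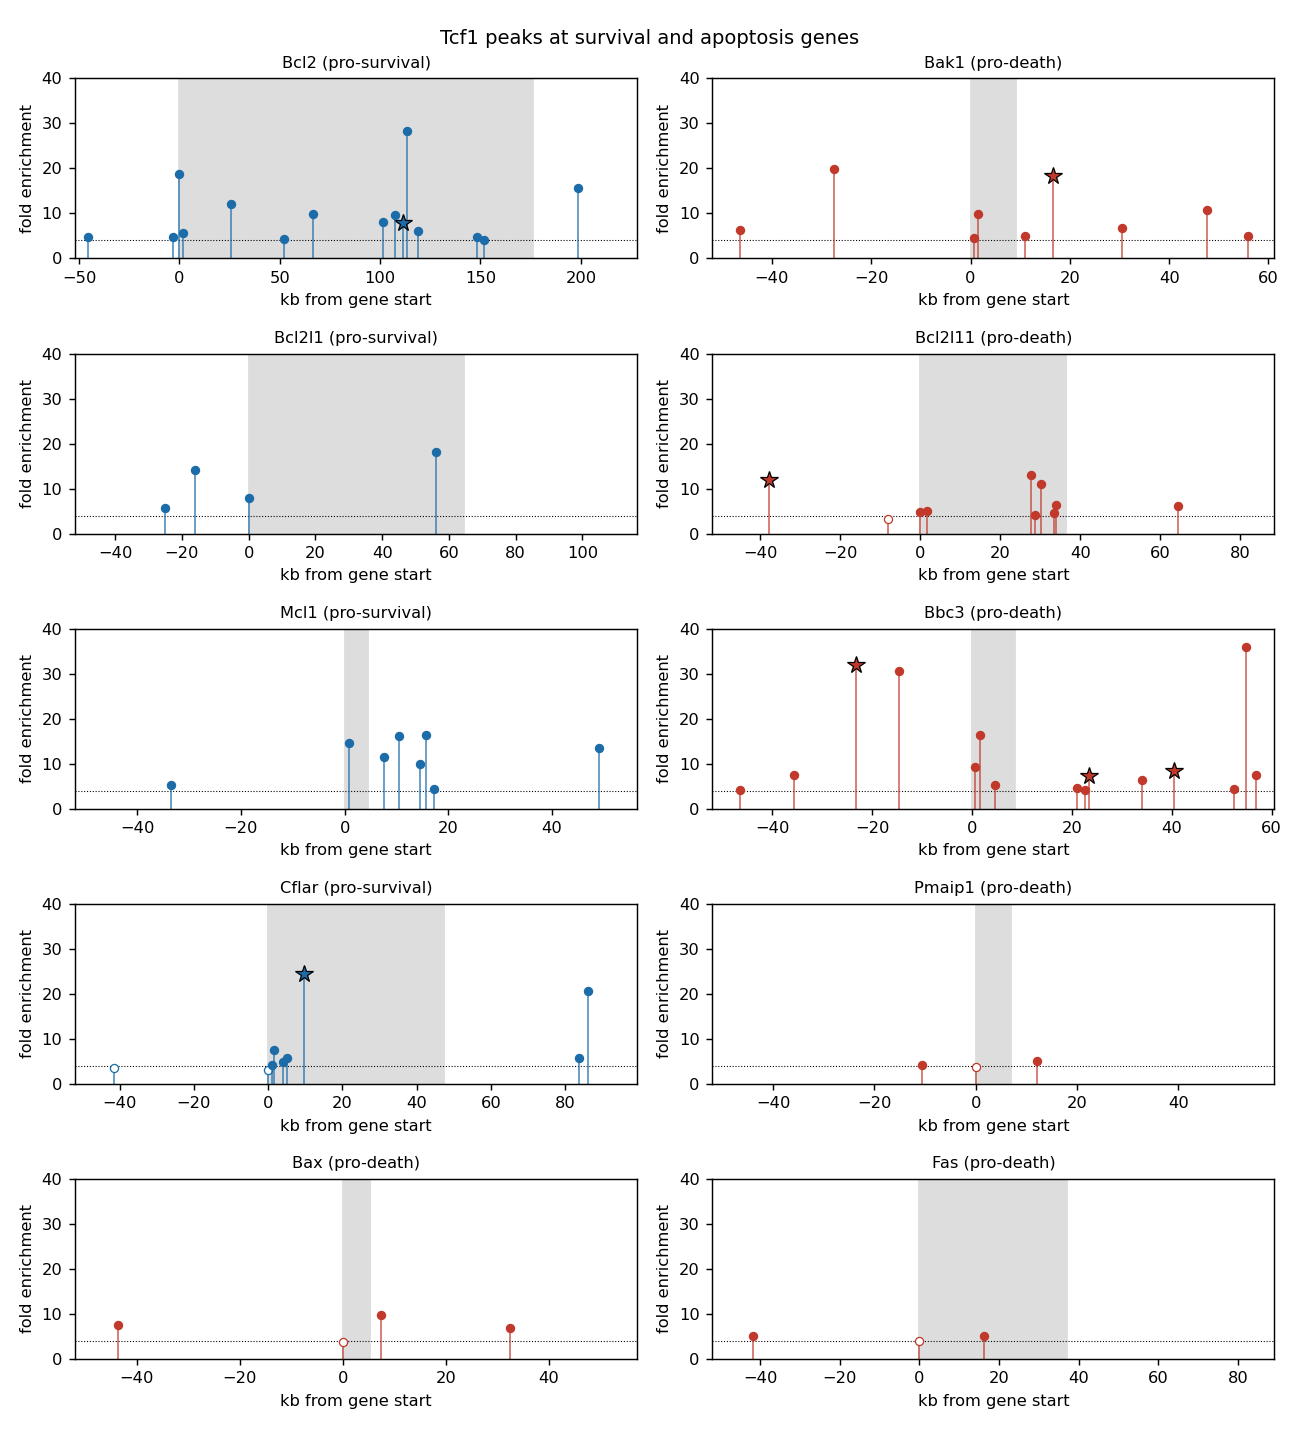
Fold enrichment of each peak against the distance of its summit from the gene's start in kb, in the direction of transcription, 1 panel per gene on the same vertical scale. Grey marks the gene body, stars the peaks with a Tcf/Lef core, open points the peaks under a fold enrichment of 4 (dotted line), blue the pro-survival and red the pro-death genes. The Bcl2 peaks lie mostly within its first intron, and the strongest Bbc3 peaks lie outside the Bbc3 gene on either side.

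Bcl2 (ENSMUSG00000057329.6, chr1:108434755-108610851, minus strand) encodes the protein that guards naïve T cells against the mitochondrial route. Its 15 peaks, 5.43 per 100 kb, spanned fold enrichments of 4.05 to 28.4 with a median of 7.79. The strongest had a pileup of 217 (189 to 248) over a control level of 6.69 and lay 113 kb into the gene, in intron 1. It was the highest of a run of 5 peaks within 17.2 kb of that intron, from 102 to 119 kb past the start, the other 4 at 6.08 to 9.66. The run also held the peak with the Tcf/Lef core, at a fold enrichment of 7.79 and a pileup of 49, in which 2 copies lay 30 bp and 11 bp from the summit on either side. The peak at the start site, 146 bp upstream, had a fold enrichment of 18.9 and a pileup of 120 (99.5 to 143) and no Tcf/Lef core, in a window of 72.1% G and C.

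Bcl2l1 (ENSMUSG00000007659.11, chr2:152593052-152657464, minus strand) encodes BCL-XL, which takes over from BCL2 in activated and developing T cells. It had 4 peaks, 2.43 per 100 kb, with fold enrichments of 5.61 to 18.1. The strongest, at 18.1 with a pileup of 115 (94.9 to 138), lay in intron 2, 56.2 kb from the start and nearer the start of Cox4i2, at 20.5 kb. The start-site peak was weaker, at 7.98 with a pileup of 55 (41.4 to 71.6), and lay 12 bp from the start with an ETS motif 20 bp from its summit. The other 2 peaks, at 14.0 and 5.61, lay upstream at the start and in intron 2 of Tpx2, so they stood closer to that gene than to Bcl2l1.

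Mcl1 (ENSMUSG00000038612.9, chr3:95462643-95467099, plus strand) encodes a short-lived guardian that T cells need at every stage. Its 8 peaks had the highest median fold enrichment of the 10 genes, 12.5, within a range of 4.36 to 16.4, and a density of 7.66 per 100 kb that 1.92% of protein-coding genes matched or passed. Of the 8, 6 formed a run over 16.4 kb from inside the gene to 17.3 kb past its start. The strongest of them, 15.7 kb past the start with a pileup of 104 (85.0 to 126), and the next, at 16.2, both lay beyond the end of the gene and nearer the start of Adamtsl4. Of the 8 summits, 6 had the start of another gene as the nearest. The start-site peak, 885 bp downstream of the start, had a fold enrichment of 14.6 and a pileup of 93 (75.1 to 114), which overlaps the interval of the strongest. No Mcl1 peak held a Tcf/Lef core, but the start-site peak held the variant TTCAAAG 2 bp from its summit.

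Cflar (ENSMUSG00000026031.9, chr1:58768352-58815728, plus strand) encodes c-FLIP, the inhibitor of caspase-8 at death receptors. It had 7 high-confidence peaks of 9 deposited, at 4.21 to 24.3 with a median of 5.76. The strongest lay 9.65 kb past the start in intron 2, with a pileup of 155 (132 to 181) and the Tcf/Lef core 7 bp from its summit. It closed a run of 5 peaks over 8.70 kb, in which the other 4 reached 4.21 to 7.48. Of those, 2 lay near annotated transcript starts, 836 bp away at a fold enrichment of 4.21 (pileup 26) and 168 bp away at 7.48 (pileup 47), while the peak 3 bp from the gene's start stayed under the minimum at 3.12. The peak of 20.6 (pileup 131) in this window lay in intron 1 of Casp8, the gene of the caspase that c-FLIP inhibits, 86.0 kb from the Cflar start. It held a Runx and a STAT motif.

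Bax (ENSMUSG00000003873.9, chr7:52717065-52722268, minus strand) and Bak1 (ENSMUSG00000057789.6, chr17:27156755-27165954, minus strand) encode the effectors that open the outer mitochondrial membrane. The pair differed in the number of peaks, 3 at Bax and 9 at Bak1. All 3 Bax peaks lay within 1 kb of the start site of another gene. The strongest, at 9.66 with a pileup of 61 (46.7 to 78.4), was at the start of Ftl1, which encodes ferritin light chain, and the others were at 6.94 and 7.48. The peak at the Bax start itself reached 3.74 with a pileup of 23 and was not of high confidence.

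Bak1 had 8.24 peaks per 100 kb, at 4.52 to 19.9 with a median of 6.86. The strongest, with a pileup of 127 (lower bound 106), lay 27.4 kb upstream and 895 bp from the start of Itpr3, the gene of an inositol trisphosphate receptor. The next, at 18.4 with a pileup of 117, lay 16.5 kb past the start in intron 2 of Ggnbp1 and held the Tcf/Lef core 3 bp from its summit. At the Bak1 start sites 2 peaks reached 9.97 (pileup 63, 976 bp away) and 4.52 (pileup 28, 279 bp away), both in introns that Bak1 shares in position with Ggnbp1. At both effectors the strongest peak stood nearer the start of another gene than their own, as it also did at Bcl2l1, Mcl1, Bbc3 and Fas.

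Bcl2l11 (ENSMUSG00000027381.10, chr2:127951774-127988283, plus strand) encodes BIM, the BH3-only protein that removes T cells deprived of survival signals. Its 9 high-confidence peaks of 10 deposited lay at 4.05 to 13.1 with a median of 6.08. The strongest, with a pileup of 83 (66.1 to 103), lay in intron 3 at 27.6 kb and began a run of 5 peaks over 6.30 kb in the 3′ part of the gene. The peak with the Tcf/Lef core, at 12.0 with a pileup of 76, lay 37.8 kb upstream in intron 16 of Acoxl, with a STAT motif 21 bp from its summit. Although inside Acoxl, that summit had the Bcl2l11 start as its nearest protein-coding start site. At annotated Bcl2l11 starts 2 peaks reached only 4.76 (pileup 35, 88 bp away) and 4.99 (pileup 31, 14 bp away), in windows of 73.1% and 81.1% G and C.

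Bbc3 (ENSMUSG00000002083.6, chr7:16894965-16903554, plus strand) encodes PUMA, the BH3-only protein induced by p53. With 15 peaks it had the highest density of the 10 genes, 13.8 per 100 kb, which 0.0670% of protein-coding genes matched or passed. The strongest peak of all 10 genes, at 35.8 with a pileup of 229 (200 to 261), lay 54.9 kb past its start in intron 5 of Sae1, which encodes a subunit of the SUMO-activating enzyme. Among all high-confidence peaks, 1.91% were as strong. The next, at 31.9 with a pileup of 204, lay 23.3 kb upstream, 326 bp from the start of Ccdc9, and held the Tcf/Lef core 10 bp from its summit. A peak of 30.5 (pileup 195), 14.7 kb upstream, lay in no gene and held no motif searched, and was picked out after its value had been seen.

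Bbc3 was the gene with the most core peaks, 3 of the 7. The other 2 were weaker, at 7.32 (pileup 46) in intron 7 and 8.26 (pileup 52) in intron 6 of Sae1. Inside Bbc3 itself 3 peaks near annotated starts reached 9.19 (pileup 58, 255 bp away), 16.4 (pileup 104, 716 bp away) and 5.30 (pileup 33, 678 bp away). The 3 peaks over 30 were therefore all outside the gene, with Ccdc9 or Sae1 as the nearest protein-coding start.

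Pmaip1 (ENSMUSG00000024521.7, chr18:66618258-66625204, plus strand) encodes NOXA, a BH3-only protein that mainly targets MCL1. Its 2 high-confidence peaks, at 4.21 and 5.14, lay 10.7 kb upstream and 12.2 kb past the start, with pileups of 26 and 32. The peak at its start reached 3.71 with a pileup of 25. The 3 values lay close to the minimum, and their pileup intervals, with upper bounds of 38.1, 45.2 and 36.9, overlapped.

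Fas (ENSMUSG00000024778.6, chr19:34365149-34402260, plus strand) encodes the death receptor of activated lymphocytes. It had 2 high-confidence peaks, 1.46 per 100 kb, the lowest density of the 10 genes. One, at 5.14 with a pileup of 32 (21.9 to 45.2), lay 41.9 kb upstream in intron 3 of Acta2, and the other, at 4.99 with a pileup of 31 (21.1 to 44.0), lay in Fas intron 1, 16.3 kb past the start. The peak 131 bp from its start reached 3.90 with a pileup of 24. Of the 22380 protein-coding genes, 49.4% had at least as many peaks as Fas or Pmaip1. Neither held a Tcf/Lef core.

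Fasl, which encodes the ligand of FAS, gave a different picture. It had 11 high-confidence peaks, 10.2 per 100 kb, at 5.20 to 136 with a median of 12.6, 7 of them at 10 or more and 2 with the Tcf/Lef core. Its weakest peak, at 5.20, was thus at the level of the strongest Fas peak. The ligand is not among the 10 genes and was taken from a list of other apoptosis genes.

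Start sites were counted separately. All 10 genes had a deposited peak within 1 kb of a start site of their own, against 36.6% of protein-coding genes. A high-confidence peak was there in 7 of 10, against 32.7%: in 4 of 4 pro-survival genes and 3 of 6 pro-death genes. The 3 without were Bax, Pmaip1 and Fas, whose start-site peaks at 3.71 to 3.90 were just short of the minimum. The pileups were 23 at Bax and 24 at Fas, where 25 was needed at their control level, and 25 at Pmaip1, where 28 was needed. Each interval reached above 34, so their side of the minimum was not resolved at this depth. The highest start-site values were 18.9 at Bcl2, 16.4 at Bbc3 and 14.6 at Mcl1, and their pileup intervals overlapped.

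**Figure D3:**
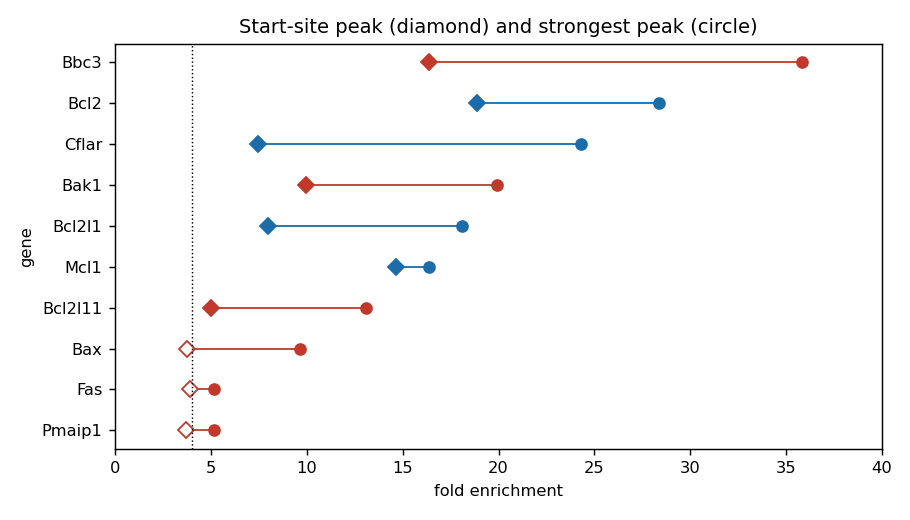
Fold enrichment (linear axis) of the strongest peak within 1 kb of a gene's own start site (diamond, open where under a fold enrichment of 4, the dotted line) and of its strongest peak anywhere in the window (circle), with pro-survival genes in blue and pro-death genes in red. The distance between the symbols is smallest at Mcl1 (14.6 and 16.4), Fas and Pmaip1.

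The peak with the largest fold enrichment lay elsewhere than the start site in each of the 10 genes, as the largest of all peaks in a window is set against 1 to 3 start-site peaks. At Mcl1, Fas and Pmaip1 the pileup intervals of the pair overlapped, so their order was not resolved. The ratio of the 2 fold enrichments was between 1.12 at Mcl1 and 3.25 at Cflar. Ordered by the strongest peak, the genes ran Bbc3, Bcl2, Cflar, Bak1, Bcl2l1, Mcl1, Bcl2l11, Bax, and Fas and Pmaip1 at an equal 5.14. The pileup intervals of neighbours in this order overlapped except between Bcl2 and Cflar and between Bax and Fas. All 4 pro-survival genes were among the first 6, with Bbc3 and Bak1 of the pro-death group, and the last 4 were pro-death genes. This order is a description of 1 library.

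Grouped by role, the guardians Bcl2, Bcl2l1 and Mcl1 had 27 peaks with a median of 9.66 and 11 peaks at 10 or more. The BH3-only genes had 26 peaks with a median of 6.31 and 7 at 10 or more, and the highest peak of any role. The effectors had 12 peaks with a median of 7.21, and Fas and Cflar together 9 with a median of 5.61.

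The peaks with a Tcf/Lef core had a median fold enrichment of 12.0 (range 7.32 to 31.9, n = 7) and those without 6.41 (4.03 to 35.8, n = 67), beside 8.57 and 6.70 over all high-confidence peaks. The ranges overlapped: of the 4 strongest peaks at these genes, 3 at Bbc3 and 1 at Bcl2, the core was in 1, the Bbc3 peak at Ccdc9. The core was in 2 of 34 pro-survival peaks (5.88%) and 5 of 40 pro-death peaks (12.5%, 4.19 to 26.8). In 6 of the 7 peaks the nearest copy lay within 11 bp (85.7%), against 37.7% of the 1940 core peaks of the whole list. The limit of 11 bp was chosen after the distances had been seen, and with 7 peaks these shares were not tested. In windows 2 kb to each side of the 74 summits the core was in 2.03%.

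With any 1 of the 7 letters free, 48 of the 74 peaks (64.9%) held the core, against 56.5% of all high-confidence peaks. The variant TTCAAAG was in 9 of 74 (12.2%), against 10.7%, and in 4.73% of the flanks. It was in 6 of 34 pro-survival peaks, among them the strongest of Bcl2, the start-site peak of Mcl1 and another peak of Bcl2 at 12.0, and in 3 of 40 pro-death peaks. The variant AACAAAG was in 6 of 74 (8.11%), against 6.96% of all peaks and 8.78% of the flanks. All 3 forms share CAAAG, so the loose search takes in both variants.

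Among the other motifs searched on both strands, the Runx motif TGTGGTT was in 10 of 74 peaks (13.5%), against 15.5% of all high-confidence peaks, and the ETS motif CGGAAGT in 3 (4.05%), against 6.93%. The Runx motif was in 0 of the 7 peaks with a Tcf/Lef core and 10 of the 67 without, beside 14.3% and 15.7% over all high-confidence peaks, and 7 peaks are too few to tell a share of 0 from that of the whole list. The forkhead motif TGTTTAC, which Foxo factors bind, was in 1 (1.35%), against 3.18%. The STAT motif TTCNNNGAA, the form bound by STAT5 downstream of interleukin-7, was in 10 (13.5%), against 6.77%: in 8 of 34 pro-survival peaks (23.5%, 10.7 to 41.2) and 2 of 40 pro-death peaks (5%). The flanks of the pro-survival peaks held it in 8.82%. Some of the pro-survival peaks with the STAT motif stood nearer the start of another gene, namely Tpx2, Adamtsl4 or Casp8. The difference between the groups was not tested. The reversed core GAAACTA, a control with the same letters, was in 1 (1.35%), against 2.40%. The STAT pattern reads the same on both strands and can take in the variant TTCAAAG. Of the 74 peaks, 47 held neither the Tcf/Lef core nor any of the other 4 motifs.

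**Figure D4:**
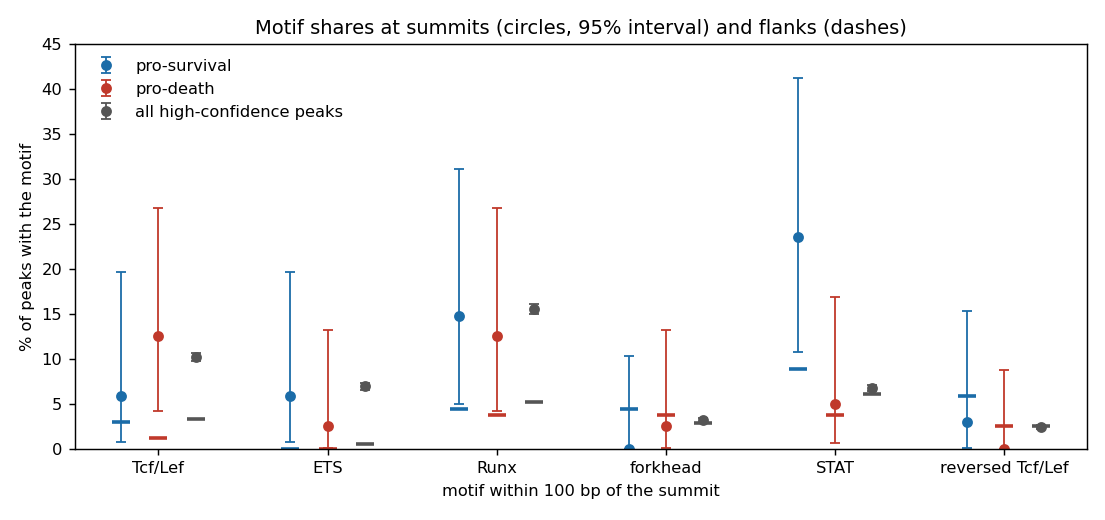
Share of high-confidence peaks (percent) with each motif within 100 bp of the summit, for pro-survival peaks (blue, n = 34), pro-death peaks (red, n = 40) and all high-confidence peaks (grey, n = 19042). Circles are shares with 95% Clopper-Pearson intervals, which cover counting error only, and dashes the share in flanking windows 2 kb to each side. The intervals of the pro-survival and pro-death peaks overlap for every motif, the STAT shares being 23.5% and 5%.

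Peaks tended to lie near one another: 51 of 74 (68.9%) had another high-confidence summit within 10 kb, against 49.1% of all high-confidence peaks. Runs of at least 3 such summits were at Bcl2, Mcl1, Cflar, Bak1, Bcl2l11 and Bbc3. The 4 other genes, which had 2 to 4 peaks each, had none. The share of all protein-coding genes with such a run was not computed, so the runs are not shown to be particular to these genes. The control level was at its floor in 64 of the 74 peaks (86.5%), against 86.3%, and the highest was 9.36, at a Bcl2 intron 1 peak of fold enrichment 8.11 and pileup 83. The strongest Bbc3 peak, which was also the strongest of all 10 genes, lay 46.3 kb from the gene's end, close to the 50-kb limit. The 3 summits nearest the limit on its inner side were of Bak1 at 46.5 kb (6.41) and 46.6 kb (5.07) and of Bbc3 at 48.3 kb (7.48), and just outside it lay peaks of Bbc3 at 50.4 kb (4.99), Bax at 55.1 kb (5.45) and Mcl1 at 57.4 kb (4.99). Of the 74 peaks, 27 had a pileup interval that reached below a fold enrichment of 4. The same share over all high-confidence peaks was not computed.

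The 10 genes were set beside 36 other genes of the same pathways, listed by function with earlier results of these data known. Of these, 29 had a high-confidence peak and 7 did not, among them Bcl2a1a, Bcl2a1c, Bcl2l10, Hrk, Tnfsf10 and Casp6. Their median was 2 peaks a gene, against 7.5 over the 10 members, and the median fold enrichment of their 92 distinct peaks was 7.24, against 7.40. The sets overlap, since 2 of the 92 peaks, those at Casp8 in the Cflar window, are also among the 74. The other BCL2 family genes had 29 peaks with a median of 7.01, the death receptor pathway 35 with 7.63, and the apoptosome, caspases and their inhibitors 28 with 8.21. The 5 with the largest fold enrichment were Fasl (136), Htra2 (42.5), Birc5 (39.0), Bid (30.1) and Ripk1 (28.7). Of these peaks, that of Htra2 lay 40.8 kb away with Ccdc142 nearest, that of Birc5 23.2 kb away in intron 1 of Tha1 and that of Bid 17.5 kb away in an exon of Mical3. Those of Fasl and Ripk1 had these genes as the nearest. Bid encodes a BH3-only protein that links death receptors to mitochondria, and Ripk1 a kinase of the death receptor complex. Of the 10 members, Bbc3 at 35.8 lay above Bid, and Bcl2 at 28.4 lay just under Ripk1.

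**Figure D5:**
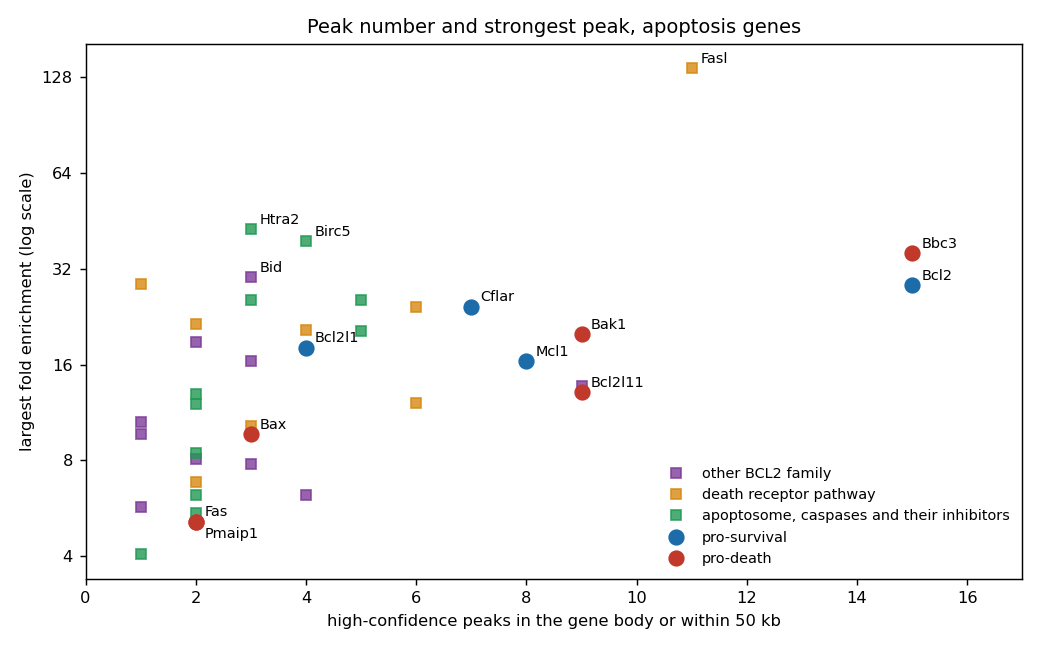
Number of high-confidence peaks in the gene body or within 50 kb (horizontal) against the largest fold enrichment (vertical, log scale) for the 10 members (circles, pro-survival in blue and pro-death in red) and the 29 other apoptosis genes with a peak (squares, coloured by list). Bbc3 and Bcl2 have the most peaks, 15 each, Fasl has the strongest, 136, and Fas and Pmaip1 share the same point at 2 peaks and 5.14.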

How the data were processed

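ChIP-seq with a Tcf1 antiserum was analysed in 1 WT and 1 Tcf1-deficient library. The submitters' processing notes name FastQC, Bowtie2 2.2.5, MACS2 2.1.1 and the mm9 build, and the file header gives MACS 2.1.1.20160309. Peaks were called by the authors on the WT library with the Tcf1-deficient library as control, and nothing was pooled. The deposited signal (pileup) is a coverage of WT fragments at the summit, the deposited fold enrichment is a ratio to the control level, and the deposited −log10 p and −log10 q are those of the peak caller and compare the 2 libraries, not the genotypes. Of the fragments, 79.6% (WT) and 76.5% (control) were kept by the authors after duplicate removal.

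The control level was computed back as (pileup + 1)/fold enrichment − 1, and a Poisson p from it was within 0.01 of the deposited −log10 p for 21949 of 21949 peaks with a finite value. Genes and sequences came from the NCBIM37 (mm9) genome and GENCODE vM1, after chromosome names and lengths were checked. RefSeq tables of another build were not used. Motifs were searched within 100 bp of the summit and in flanks 2 kb away. Intervals (Poisson, Clopper-Pearson, order statistic, 95%) cover counting error or the spread among peaks only. Scripts (Python 3.11.15, pandas 2.3.3, numpy 2.4.6, scipy 1.17.1, pysam 0.24.0, matplotlib 3.10.9) were tested on simulated data. No tests between libraries, genes or groups of genes were run, since each group was 1 library.

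The members and lists were chosen with earlier results of these data known. At each member the strongest peak, every peak within 1 kb of an own start site and every peak with the Tcf/Lef core were named. Of the other apoptosis genes, the 5 with the largest fold enrichment and those without a peak were named, apart from an item that is not reported here. Alternatives changed the fold minimum, the window, the assignment of peaks, the core, the promoter and the loci included.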

Additional observations from a re-analysis of the deposited data

Results flagged for a closer look

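The comparisons used high-confidence peaks, and 6 deposited peaks at these genes that fell short of a fold enrichment of 4 lay outside them while standing above the control level. They were at Cflar (3.58, 41.6 kb upstream in intron 8 of Als2cr12, and 3.12 at the start site), Bax (3.74 at the start site), Bcl2l11 (3.28, 8.20 kb upstream), Pmaip1 (3.71 at the start site) and Fas (3.90, 131 bp from the start site). Of the 6, 4 lay within 1 kb of a start site of their own gene. Their pileups were 22 to 25 fragments, and each pileup interval reached past the 25 to 30 fragments that a fold enrichment of 4 needed at that peak's own control level.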

How the results depend on the processing

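Each of the 8 results was recomputed under alternatives, 62 values in all, of which 47 stayed within the limits set (a factor of 1.5 for counts, the interval for the others) and 15 moved. A fold enrichment minimum of 8 left 31 peaks, 17 pro-survival and 14 pro-death, with medians of 14.6 and 12.5. A window of 10 kb left 40 peaks in all and 17 pro-death. Counting peaks only where the nearest protein-coding start site was that of the member left 44, 22 in each group. Without the Bcl2 locus the pro-survival group had 19 peaks, and without the Bbc3 locus, added after seeing the data, the pro-death group had 25. With 1 base of the core free its share was 64.9%. With pileup as the measure the medians were 58 and 43.5 fragments, which is a change of unit and accounts for 2 of the 15. The pro-survival median was above the pro-death median in each of these alternatives that gave both. The density ratio ran from 0.803 to 1.23 and passed 1 with a minimum of 8 (1.23) and without Bbc3 (1.17), so its direction depended on both. The Bcl2 locus was the longest, and the density ratio without it was 0.803.

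No paired analysis was possible because each group was 1 library, and there was no replicate to leave out. Depth limits the weak peaks: 27 of 74 had a pileup interval that reached below the fold minimum, a share not computed over the whole list.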

Other observations

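Among the other BCL2 family genes, the annotated copies of Bcl2a1, the gene of the survival protein A1, differed in their peaks. The copies are not all alike, since Bcl2a1c is annotated at chr9:114239253-114239696 only and is much shorter than the others. Bcl2a1b had 3 high-confidence peaks and Bcl2a1d 2, whereas Bcl2a1a and Bcl2a1c had none. The strongest peak of Bcl2a1b (fold enrichment 16.4, pileup 104) lay 13.5 kb past its start and that of Bcl2a1d (18.9, pileup 120) 13.6 kb past its start, and both held the Tcf/Lef core. They lay in intron 1 of Mthfs and intron 1 of Gm2382, which were also the genes with the nearest start. Reads from near-identical copies cannot be assigned with certainty, so these values are uncertain, and the pair was picked out after its values had been seen.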
